A study of Gallus gallus with 15 samples.

Results

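A set of 10 genes that sense lipids or relay that signal to chromatin was followed in chick abdominal fat: the receptors PPARA, PPARD, RXRA, RXRG, NR1H3 (liver X receptor alpha) and NR1H4 (farnesoid X receptor), the coactivators PPARGC1A (PGC-1alpha) and NCOA1, and the corepressors NRIP1 and NCOR1. Every probe set annotated to one of these symbols was taken, which gave 25 probe sets of 38439 on the array. Male chicks of a commercial broiler line, aged 16 to 17 days, formed 3 groups of 5 birds. Insulin-neutralized birds kept their feed and were given porcine anti-insulin serum at 0, 2 and 4 h. Fasted birds had no feed for 5 h, and fed birds ate freely, and both of these groups were injected with normal porcine serum. Total RNA of each bird was hybridised to 1 Affymetrix GeneChip Chicken Genome Array, and values are GCRMA values on the log2 scale, so that a difference of 1 is a 2-fold change. The serum lowers insulin action while the bird goes on eating, so the insulin-neutralized and fasted groups differ in feed intake as well as in serum.

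The peroxisome proliferator-activated receptors and the liver and farnesoid X receptors bind fatty acids, oxysterols or bile acids, and act on DNA mostly as pairs with a retinoid X receptor. Coactivators of the NCOA family and PGC-1alpha raise transcription from such pairs. NCOR1 and NRIP1 (also called RIP140) recruit histone deacetylases and lower it, and in mouse fat NRIP1 is known for holding down genes of fat oxidation.

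A 5-h fast raised NR1H3, NRIP1 and NCOR1 and lowered NCOA1. The NCOA1 call was not firm, since it was lost under 15 of 27 alternatives in processing or in the birds used. NR1H3 was 2.04-fold and 2.30-fold higher in fasted birds than fed ones by its 2 probe sets, NRIP1 1.83-fold and 2.04-fold higher, and NCOR1 1.54-fold to 1.70-fold higher by 3 of its probe sets, while NCOA1 was 1.46-fold lower. Insulin neutralization in fed birds changed no member past the threshold. Against fasted birds, insulin-neutralized birds had less PPARD (1.59-fold), NR1H3 (1.81-fold and 2.05-fold) and NRIP1 (1.65-fold and 1.73-fold). The NRIP1 calls of this comparison were lost under 8 of 27 and 10 of 26 alternatives. The 1.70-fold NCOR1 call after the fast was lost under 11 of 26. PPARA, RXRA, RXRG and PPARGC1A passed the threshold in no comparison, and NR1H4 gave no value above the lowest of the table in any bird.

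A probe set was tested if it was not below 3 on 5 or more arrays, which kept 18612 probe sets, 14 of them members from 9 genes. Limma was fitted to all 15 arrays and p-values were adjusted over every probe set tested, and a probe set with an adjusted p under 0.05 was taken as called. Between fasted and fed birds 8 of the 14 were called (57.1%), 7 higher and 1 lower, where 9.64% of all probe sets tested were called, 4.95% higher and 4.69% lower. The 2 groups did not overlap in these same 8, against 8.39% of all probe sets. Between insulin-neutralized and fed birds limma called 0 of 14, with 5 at an unadjusted p under 0.05, where 0.494% of all probe sets were called and 17.5% had such a p. Between insulin-neutralized and fasted birds 5 of 14 were called (35.7%), all lower, where 4.06% of all probe sets were called, 1.54% higher and 2.53% lower. There 3 of the 14 had no overlap between groups, against 8.34% of all. Since probe sets of a gene share its transcripts, the counts were also taken over genes with the brightest probe set of each. They were 4, 0 and 3 of 9 genes in these comparisons, in this order, where 10.7%, 0.595% and 4.36% of 9243 named genes were called. By direction these were 4.93% higher and 5.77% lower, 0.281% higher and 0.314% lower, and 1.69% higher and 2.67% lower, against which the gene lists can be read. The comparisons share birds, so their counts are not independent of each other. Members were also chosen with earlier results of these data known, so shares above those of all probe sets may partly reflect that choice.

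**Figure D1:**
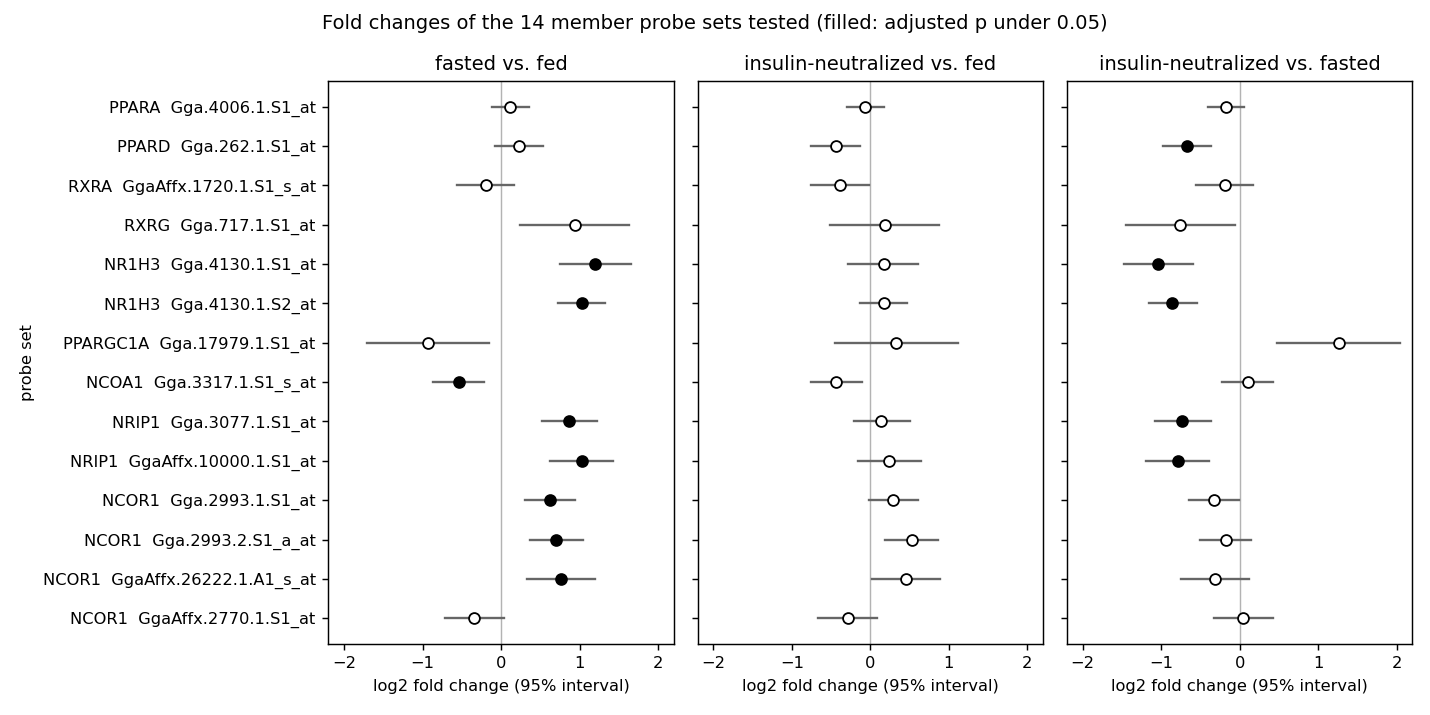
Log2 fold change (points, horizontal axis) with 95% interval (lines) of the 14 member probe sets tested, 1 row each, in the 3 comparisons; filled points have an adjusted p under 0.05. In fasted vs. fed birds 7 filled points lie right of 0 and 1 (NCOA1) lies left. In insulin-neutralized vs. fed birds none is filled, and in insulin-neutralized vs. fasted birds the 5 filled points lie left of 0.

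Some arrays and birds stood apart. Arrays of fed birds 4 and 5 correlated less with the other arrays (mean r of 0.955 and 0.958, against 0.963 to 0.977) and got array weights of 0.219 and 0.242, where the other arrays lay between 0.555 and 1.60. Hepatocyte markers (6 genes, mean log2 level) stood at 11.54 in fasted bird 5 and at 10.86 in insulin-neutralized bird 1, and at 7.81 and 7.11 in insulin-neutralized birds 5 and 4, against at most 5.84 in the others. In fasted bird 5 and insulin-neutralized bird 1, albumin read 15.59 and 15.07, the fibrinogen gene FGB 12.56 and 12.17, and HNF4A, the liver transcription factor, 2.39 and 2.72, below the filter value. The list's called gene was APOA1, the main protein of high-density lipoprotein, which was 2.33-fold higher in fasted vs. fed birds (adjusted p = 0.00134) and 2.55-fold lower in insulin-neutralized vs. fasted birds (adjusted p = 0.00174), without overlap and under all 27 alternatives. The actin 3′ minus 5′ difference, a sign of RNA length, was 1.21 to 1.52 in insulin-neutralized, 0.939 to 1.18 in fasted and 0.904 to 1.44 in fed birds. The first 2 of these ranges do not overlap. The same difference for GAPDH was 0.703 to 0.952, 0.813 to 1.02 and 0.773 to 1.06 in the same order of groups. Those ranges overlap. Adipocyte markers (9 of 9 genes measured) had mean levels of 12.62 to 13.19 in insulin-neutralized, 12.53 to 13.15 in fasted and 13.29 to 13.56 in fed birds. The fed range lay above both others. DGAT2 and CEBPA, which make triglyceride and drive fat cell differentiation, were the list's genes called lower in fasted vs. fed birds (10.5-fold and 2.80-fold). PNPLA2, the first lipase of fat breakdown, was called higher (1.41-fold). The other 6 were not called there, with log2 changes of 0.0 (ADIPOQ), 0.08 (FABP4), 0.1 (CD36), 0.28 (CIDEC), -0.14 (PLIN1) and -0.41 (LPL). The list's median change there was 0.0. DGAT2 was also 6.10-fold lower in insulin-neutralized vs. fed birds (adjusted p = 0.00367), and CIDEC, a lipid droplet protein, 1.79-fold lower in insulin-neutralized vs. fasted birds (adjusted p = 0.0356). Lists for macrophages, T cells and endothelium overlapped between all groups in their mean levels. The endothelial cadherin CDH5 was the called gene of these lists, 1.36-fold higher in fasted vs. fed birds without overlap (adjusted p = 0.0389). Its call was kept under 10 of 27 alternatives. The other endothelial genes were not called there, with log2 changes of 0.5 (PECAM1), 0.3 (TEK), 0.28 (VWF), -0.26 (EGFL7) and -0.87 (KDR). Fibroblast markers (6 of 6 genes on the array, PDGFRA with a median below 3) lay at 13.43 to 13.55 in insulin-neutralized and 13.29 to 13.40 in fasted birds. These ranges do not overlap, and fed birds lay at 13.26 to 13.65. Mesothelial markers (2 of 5 genes measured) overlapped between all groups but varied widely between birds. They were highest of all birds in fed bird 4 (10.24) and lowest in fed bird 5 (6.70). In bulk tissue fewer cells of a type and less RNA per cell cannot be told apart, and the part of these differences in the results was not tested.

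PPARA and PPARD are receptors for fatty acids. PPARA, which in mammalian liver drives fat oxidation during fasting, read close to the filter value in this fat. Its kept probe set gave 3.73, 3.74, 3.73, 3.74 and 3.73 in insulin-neutralized birds 1 to 5, 4.21, 3.73, 3.74, 3.92 and 3.96 in fasted birds and 3.74, 3.83, 4.12, 3.74 and 3.58 in fed birds. The 3 groups overlapped, and 9 of the values lay within 0.01 of 3.74. The change in fasted vs. fed birds was 0.11 (95% interval -0.12 to 0.35) and in insulin-neutralized vs. fasted birds -0.18 (-0.41 to 0.06). Changes inside these intervals are compatible with the values of this probe set. With so many nearly equal values, the intervals need not bound the change of the transcript. The other PPARA probe sets read at most 3.33 and 2.41 in any bird and were removed by the filter.

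PPARD, found in most tissues, was the receptor that separated the insulin-neutralized birds. Its single probe set read 7.68, 7.71, 7.68, 7.31 and 7.87 in insulin-neutralized birds, 8.14, 8.09, 8.40, 8.71 and 8.24 in fasted birds and 8.02, 7.90, 7.92, 8.17 and 8.44 in fed birds. Every insulin-neutralized bird lay below every fasted and every fed bird, though only just (7.87 against 7.90 at the nearest), whereas fasted and fed birds overlapped. The level was 1.59-fold lower in insulin-neutralized birds than fasted ones (log2 change -0.67, SE 0.14, adjusted p = 0.0197). Against fed birds it was 1.36-fold lower without passing the threshold (log2 change -0.44, SE 0.14, adjusted p = 0.167), and fasted vs. fed birds differed by 0.23 (SE 0.14, adjusted p = 0.366). The call against fasted birds was lost when insulin-neutralized bird 1 and fasted bird 5, which had the high hepatocyte markers, were both left out (log2 change -0.69, adjusted p = 0.0732).

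The retinoid X receptors RXRA and RXRG are the partners of the other receptors. RXRA was measured by 1 kept probe set, which read 6.37, 6.48, 5.80, 5.49 and 6.37 in insulin-neutralized birds, 6.37, 6.37, 6.11, 6.37 and 6.26 in fasted birds and 6.59, 6.37, 6.37, 6.74 and 6.37 in fed birds. The same value, 6.37, stood in 8 of 15 birds, so this probe set resolved few differences, and insulin-neutralized birds 3 and 4 were the lowest. RXRA was 0.39 lower on the log2 scale in insulin-neutralized birds than fed ones (95% interval of the change -0.75 to -0.02), which did not pass the threshold (adjusted p = 0.265). Both other RXRA probe sets were listed at the table's lowest value, 2.18, in all birds. Each array gave this value for 34.7% to 37.1% of all probe sets.

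RXRG was spread widely among the fasted birds. Its kept probe set read 3.33, 3.75, 3.70, 3.96 and 4.45 in insulin-neutralized birds, 4.38, 5.49, 3.37, 4.83 and 4.90 in fasted birds and 3.75, 3.91, 3.54, 3.16 and 3.91 in fed birds. Fasted birds 1, 2, 4 and 5 lay above all fed birds, and fasted bird 3 lay inside their range. The change in fasted vs. fed birds was 0.94 (SE 0.32, 1.92-fold, adjusted p = 0.0852), which did not pass the threshold. Without fasted bird 3 it was 1.25 with an adjusted p of 0.00883, and the change in insulin-neutralized vs. fasted birds was -1.06 (adjusted p = 0.0369) against -0.76 (adjusted p = 0.235) with all birds. Fasted bird 3 was the lowest of its group, so leaving it out could only raise the fasted mean. The other 26 alternatives left both changes uncalled, with adjusted p-values up to 0.211 and 0.601. Fed birds read near the filter value (3.16 to 3.91), so the fold is poorly resolved. The other RXRG probe set was at 2.18 in every bird.

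NR1H3 encodes liver X receptor alpha, an oxysterol receptor that turns on cholesterol export and fatty acid synthesis genes in liver and fat of mammals. Its first probe set, the brighter, read 11.74, 11.77, 11.53, 11.32 and 11.78 in insulin-neutralized birds, 12.38, 12.69, 12.25, 12.84 and 12.26 in fasted birds and 11.36, 11.22, 11.46, 11.50 and 11.74 in fed birds. Every fasted bird lay above every bird of the other groups, and the insulin-neutralized and fed birds overlapped. The second probe set read 8.09, 7.72, 8.01, 7.18 and 8.12 in insulin-neutralized birds, 8.85, 9.31, 8.42, 9.27 and 8.44 in fasted birds and 7.49, 7.63, 7.57, 7.75 and 7.86 in fed birds. It separated the fasted birds in the same way, with fasted birds 2 and 4 highest by both probe sets.

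The rise of NR1H3 in fasted vs. fed birds was 1.03 on the log2 scale by the first probe set (SE 0.14, 2.04-fold, adjusted p = 0.000517) and 1.20 by the second (SE 0.21, 2.30-fold, adjusted p = 0.00261). In insulin-neutralized vs. fasted birds the changes were -0.86 (SE 0.14, 1.81-fold lower, adjusted p = 0.00387) and -1.04 (SE 0.21, 2.05-fold lower, adjusted p = 0.0141). Insulin-neutralized and fed birds differed by 0.17 with both probe sets (95% intervals -0.13 to 0.47 and -0.28 to 0.61). NR1H3 was the member whose calls, in both comparisons with fasted birds, held under every alternative run. APOA1 of the hepatocyte list separated the fasted birds in the same directions, but the other genes of that list did not. Albumin read 15.59 in fasted bird 5 and 3.31 to 8.26 in the other fasted birds. APOA1 read 14.89 to 15.24 over all fasted birds, and 13.66 in insulin-neutralized bird 1, where albumin read 15.07. It thus did not follow albumin from bird to bird. Fasted bird 5 read 12.26 and 8.44 for NR1H3, near the low end of its group. The part of liver tissue in the NR1H3 result was not tested.

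NR1H4, the bile acid receptor of liver and intestine, was at 2.18 on all 15 arrays with both of its probe sets. This included fasted bird 5 and insulin-neutralized bird 1, in which albumin was highest. No fold change was computed for it, and the array does not tell a silent gene from a probe set that does not respond.

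**Figure D2:**
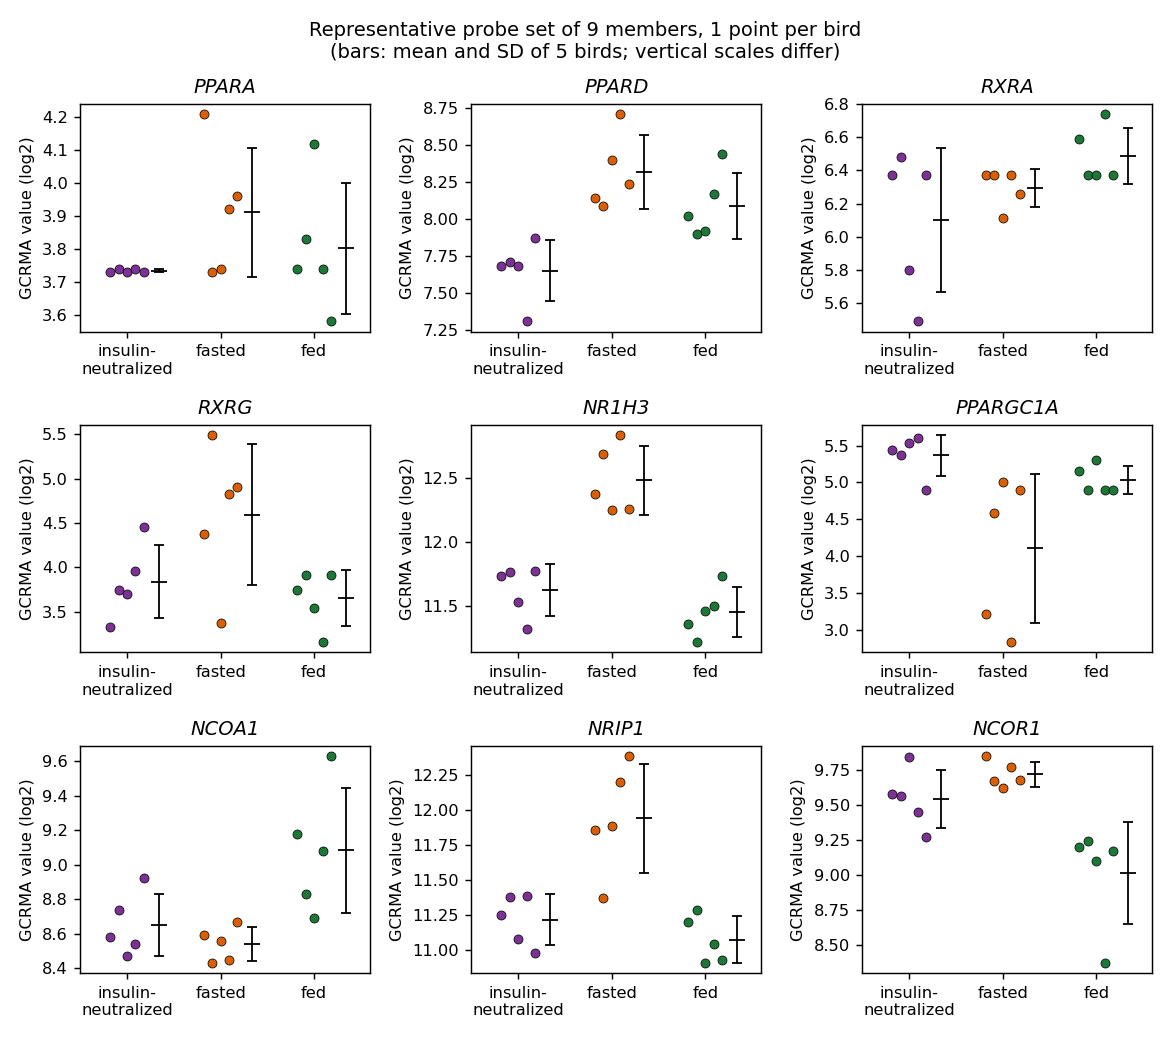
GCRMA values (log2, vertical axis, scaled separately per panel) of 9 members with the brightest probe set of each, 1 point per bird, for insulin-neutralized, fasted and fed birds; bars give the mean and SD of 5 birds. Fasted birds stand apart upward in NR1H3, insulin-neutralized birds stand apart downward in PPARD, and fed birds stand apart downward in NCOR1. In NCOA1 the fasted birds (8.43 to 8.67) lie below the fed birds (8.69 to 9.63).

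PGC-1alpha, encoded by PPARGC1A, is a coactivator known for raising mitochondrial and oxidative genes in muscle, brown fat and liver of mammals. Its kept probe set read 5.44, 5.37, 5.53, 5.60 and 4.90 in insulin-neutralized birds, 3.21, 4.58, 5.01, 2.83 and 4.90 in fasted birds and 5.16, 4.90, 5.31, 4.90 and 4.89 in fed birds. Fasted birds 1 and 4 were far below all other birds, and the rest of the fasted birds lay within or near the fed range. The same value, 4.90, stood in 4 of 15 birds, so this probe set may resolve small differences poorly. The change was -0.93 in fasted vs. fed birds (SE 0.36, adjusted p = 0.128) and 1.26 in insulin-neutralized vs. fasted birds (SE 0.36, 2.40-fold, adjusted p = 0.0703). Neither passed the threshold, though the second did without fasted bird 3 (log2 change 1.49, adjusted p = 0.0381) and with array weights (1.45, adjusted p = 0.0241). The other 25 alternatives left the second change uncalled.

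Skeletal muscle markers had mean levels of 5.74 to 8.91 in insulin-neutralized, 5.15 to 6.71 in fasted and 5.46 to 8.23 in fed birds (4 of 5 genes measured). ACTA1, skeletal actin, was 2.37-fold higher in insulin-neutralized birds than fasted ones (adjusted p = 0.0139) and 2.15-fold lower in fasted birds than fed ones (adjusted p = 0.0139). In the birds with the lowest PPARGC1A the muscle list stood at 6.71 (fasted bird 1) and 5.15 (fasted bird 4). The first is the highest of the fasted group and the second the lowest of all birds. The part of muscle in the PPARGC1A values was not tested. The other PPARGC1A probe set stayed at 2.21 to 2.30.

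NCOA1, a histone acetyltransferase coactivator of the steroid receptor coactivator family, was the called member that was lower after a fast. Its kept probe set read 8.58, 8.74, 8.47, 8.54 and 8.92 in insulin-neutralized birds, 8.59, 8.43, 8.56, 8.45 and 8.67 in fasted birds and 9.18, 8.83, 8.69, 9.08 and 9.63 in fed birds. Every fasted bird lay below every fed bird, fasted bird 5 (8.67) only just below fed bird 3 (8.69). The change was -0.54 in fasted vs. fed birds (SE 0.15, 1.46-fold lower, adjusted p = 0.0366) and -0.44 in insulin-neutralized vs. fed birds (SE 0.15, 1.35-fold lower, adjusted p = 0.182). Insulin-neutralized and fasted birds differed by 0.11 (95% interval -0.22 to 0.43).

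This NCOA1 call was the least firm among the members. It was lost under 15 of 27 alternatives, with adjusted p-values up to 0.0990. Among them were the fits without fed bird 5, the highest bird (log2 change -0.41, adjusted p = 0.0507), without fed birds 4 and 5 (-0.36, adjusted p = 0.0990) and without fasted bird 4 (-0.52, adjusted p = 0.0836). Leaving out any of fasted birds 1, 2 and 3 and fed birds 1 and 4 ended it as well (adjusted p = 0.0624, 0.0720, 0.0628, 0.0724 and 0.0624). The other NCOA1 probe set was at 2.18 in 14 of 15 birds.

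NRIP1 is a corepressor of many nuclear receptors. Its first probe set, the brighter, read 11.25, 11.38, 11.08, 11.39 and 10.98 in insulin-neutralized birds, 11.86, 11.37, 11.89, 12.20 and 12.39 in fasted birds and 11.20, 11.29, 10.91, 11.04 and 10.93 in fed birds. Fasted birds were all above the fed birds, and fasted bird 2, the lowest, lay just under insulin-neutralized birds 2 and 4. The second probe set under this symbol read 11.18, 11.05, 10.90, 10.97 and 10.83 in insulin-neutralized birds, 11.52, 11.14, 11.84, 11.91 and 12.47 in fasted birds and 10.73, 10.75, 10.65, 10.96 and 10.66 in fed birds. It gave the same picture, with fasted bird 5 highest and fasted bird 2 lowest of their group, although the platform annotation gives the 2 probe sets different gene identifiers.

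NRIP1 was higher in fasted birds than fed ones by 0.87 (SE 0.16, 1.83-fold, adjusted p = 0.00463) and 1.03 (SE 0.19, 2.04-fold, adjusted p = 0.00346), and both calls held under every alternative run. In insulin-neutralized vs. fasted birds the changes were -0.73 (SE 0.16, adjusted p = 0.0247) and -0.79 (SE 0.19, adjusted p = 0.0292). These calls were less firm and were lost under 8 of 27 and 10 of 26 alternatives. Both were lost with no filter on low values and with the replicate number as a block. The second was also lost when only the groups compared were fitted. The first was lost without insulin-neutralized bird 1, 3 or 5 or fasted bird 4 or 5 (adjusted p of 0.0534, 0.0657, 0.0650, 0.0656 and 0.0572). The second was lost without insulin-neutralized bird 2, 3, 4 or 5 or fasted bird 3 or 4 (adjusted p of 0.0515, 0.0721, 0.0632, 0.0727, 0.0597 and 0.0722). Without both insulin-neutralized bird 1 and fasted bird 5 they stood at -0.62 (adjusted p = 0.105) and -0.66 (adjusted p = 0.0549). Insulin-neutralized birds differed from fed birds by 0.14 (95% interval -0.21 to 0.50) and 0.24 (-0.16 to 0.64).

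NCOR1, the scaffold of a histone deacetylase complex that silences unliganded receptors, had 6 probe sets, 4 of which were kept. They are taken in order of brightness. The first read 9.58, 9.56, 9.84, 9.45 and 9.27 in insulin-neutralized birds, 9.85, 9.67, 9.62, 9.77 and 9.68 in fasted birds and 9.20, 9.24, 9.10, 8.37 and 9.17 in fed birds. All fed birds lay below all birds of both other groups, with fed bird 4 lowest by far. The second read 8.57, 8.32, 8.50, 8.22 and 8.22 in insulin-neutralized birds, 8.90, 8.63, 8.60, 8.85 and 8.48 in fasted birds and 8.18, 8.34, 8.33, 7.54 and 7.97 in fed birds. The third read 7.24, 7.0, 7.35, 6.52 and 6.19 in insulin-neutralized birds, 7.22, 7.04, 6.87, 7.44 and 7.30 in fasted birds and 6.21, 6.65, 6.55, 6.45 and 6.19 in fed birds. In these, too, every fasted bird was above every fed bird, while insulin-neutralized birds overlapped both groups.

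The changes of these 3 probe sets in fasted vs. fed birds were 0.70 (SE 0.16, 1.63-fold, adjusted p = 0.0111), 0.62 (SE 0.15, 1.54-fold, adjusted p = 0.0175) and 0.77 (SE 0.20, 1.70-fold, adjusted p = 0.0301). The first held its call under every alternative run, with changes between 0.54 and 0.76 and an adjusted p of at most 0.0383. The second lost it only when fed and fasted arrays alone were fitted (adjusted p = 0.0612). The third lost it under 11 of 26 alternatives, with adjusted p-values up to 0.100, among them the fits that left out fasted bird 1, 4 or 5 (0.0609, 0.0785 and 0.0610) and those that left out fed bird 1, 4 or 5 (0.0652, 0.0515 and 0.0623). In insulin-neutralized vs. fed birds the first was 0.53 higher without overlap but not past the threshold (SE 0.16, adjusted p = 0.140). It and PPARD were the 2 of 14 member probe sets without overlap in this comparison, where 4.04% of all probe sets had none.

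The fourth kept NCOR1 probe set went another way. It read 3.64 in 12 of 15 birds, 3.85 in insulin-neutralized bird 5, and 4.68 and 4.27 in fed birds 3 and 4. Its change in fasted vs. fed birds was -0.34 (adjusted p = 0.256), and its correlation with the other kept NCOR1 probe sets over the 15 birds was -0.34 to -0.64, against 0.74 to 0.90 among those. The 2 removed NCOR1 probe sets stayed at or below 3.44. For NR1H3 and NRIP1 the 2 probe sets followed each other closely (r = 0.96 and 0.95, and 0.83 and 0.83 after the group means were removed). With group means removed, the first and second NCOR1 probe sets had r = 0.83. The third then had r = 0.40 with the first and 0.45 with the second, so it followed them less within groups.

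**Figure D3:**
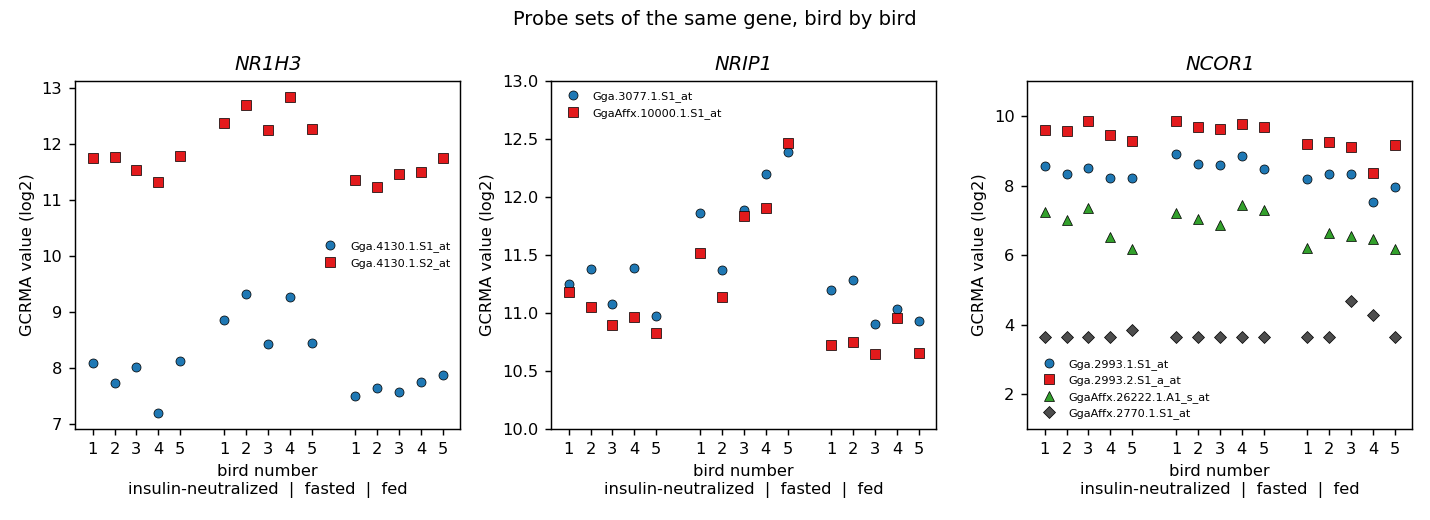
GCRMA values (log2, vertical axis) of the kept probe sets of NR1H3, NRIP1 and NCOR1, 1 symbol per probe set and bird, with birds 1 to 5 of the insulin-neutralized, fasted and fed groups side by side. The probe sets of NR1H3 and of NRIP1 move together between birds, as do the first and second brightest of NCOR1. The third of NCOR1 follows these less closely, and the lowest one stays at 3.64 in 12 of 15 birds.

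Other receptors of lipids and hormones formed a list of 25, of which 12 were kept. Of these, 1 was higher and 1 lower in fasted birds than fed ones, and 0 were called in the comparisons of insulin-neutralized birds. Leaving out 1 bird gave counts of 0 to 3 for fasted vs. fed, with 0 when fasted bird 4 and 3 when fed bird 5 was left out. PPARG, the master regulator of fat cell differentiation, read 11.03, 10.25, 10.66, 10.40 and 10.78 in fasted birds and 11.62, 11.91, 11.35, 11.24 and 11.12 in fed birds. The groups did not overlap, and PPARG was 1.76-fold lower in fasted birds (log2 change -0.82, SE 0.20, adjusted p = 0.0193), a call kept under 25 of 27 alternatives. NR1D2, a repressor of the circadian clock, was 1.51-fold higher (adjusted p = 0.0434) and kept its call under 9 of 27.

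Among 16 kept coactivators other than the members, 3 were higher and 0 lower in fasted birds than fed ones. LPIN1, which acts both as an enzyme of triglyceride synthesis and as a partner of PGC-1alpha in mouse liver, read 4.80, 5.91, 5.24, 4.83 and 5.77 in insulin-neutralized birds, 7.96, 8.05, 8.01, 8.53 and 7.57 in fasted birds and 3.21, 3.80, 4.41, 4.47 and 4.64 in fed birds. Each group lay apart from the others. Fed birds read near the filter value, so the size of folds over them is poorly resolved. LPIN1 was 15.1-fold higher in fasted birds than fed ones (adjusted p = 6.33e-06) and 6.57-fold lower in insulin-neutralized birds than fasted ones (adjusted p = 0.000205), and both calls held under all 27 alternatives. Its difference between insulin-neutralized and fed birds, 1.20 on the log2 scale, did not pass (SE 0.30, adjusted p = 0.0812). NCOA2, of the same family as NCOA1, was 1.33-fold higher and SIRT1, a deacetylase that acts on PGC-1alpha, 1.29-fold higher in fasted birds than fed ones (adjusted p = 0.0323 and 0.0349), calls kept under 15 and 19 of 27 alternatives. In insulin-neutralized vs. fasted birds 0 were higher and 2 lower, LPIN1 and NCOA5 (1.91-fold, adjusted p = 0.0378, kept under 17 of 27). NCOA5 read near the filter value, at 3.04 to 3.98 in insulin-neutralized and 4.08 to 4.96 in fasted birds, so its fold is poorly resolved. In insulin-neutralized vs. fed birds 0 of the 16 were called.

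Of 15 other corepressors kept, 1 was higher and 2 were lower in fasted birds than fed ones. NAB1, a repressor of EGR factors, read 5.22, 5.16, 5.14, 5.06 and 5.16 in insulin-neutralized birds, 6.66, 6.10, 6.45, 6.65 and 5.93 in fasted birds and 5.06, 5.14, 5.06, 5.06 and 5.06 in fed birds. The value 5.06 stood in 4 fed birds and in insulin-neutralized bird 4 and may be the lowest this probe set gives, so that the fold over fed birds may be only a lower bound. Every fasted bird stood above all others, and the fold was 2.43 over fed birds (adjusted p = 3.63e-05) and, for insulin-neutralized below fasted birds, 2.31 (adjusted p = 0.000175). TBL1XR1 and TBL1X, which sit in the NCOR1 complex, were 1.43-fold and 1.40-fold lower in fasted birds than fed ones (adjusted p = 0.0176 and 0.0269), opposite to NCOR1, and were called under 24 and 17 of 27 alternatives. HDAC3, the deacetylase of that complex, was among the 12 not called. In insulin-neutralized vs. fed birds 0 of the 15 were called.

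Target genes of the receptors, known mostly from mammals, formed short lists, so their counts are small. Among all named genes, the fast raised 4.93% and lowered 5.77%. Insulin-neutralized birds had 0.281% higher and 0.314% lower than fed birds, and 1.69% higher and 2.67% lower than fasted ones. With at most 20 kept genes in a list, 1 called gene is enough to lie above nearly all of these shares. A count above them was therefore not read as a result. No enrichment was tested, and the lists were chosen with earlier results known. Of 20 kept PPAR targets, 4 were higher and 0 lower in fasted birds than fed ones, 1 was higher and 0 lower in insulin-neutralized birds than fed ones, and 0 were higher and 3 lower in insulin-neutralized birds than fasted ones. PDK4, which blocks entry of pyruvate into the citric acid cycle, read 14.09, 13.64, 13.17, 13.56 and 12.81 in insulin-neutralized birds, 14.69, 14.78, 14.77, 15 and 14.49 in fasted birds and 10.76, 10.80, 10.41, 9.47 and 11.73 in fed birds. The 3 groups did not overlap. PDK4 was 17.3-fold higher in fasted birds than fed ones (adjusted p = 1.01e-05), 7.06-fold higher in insulin-neutralized birds than fed ones (adjusted p = 0.00375) and 2.45-fold lower in insulin-neutralized birds than fasted ones (adjusted p = 0.0420). These calls held under 27, 26 and 11 of 27 alternatives.

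PLIN2, a lipid droplet coat protein, was 2.26-fold higher in fasted birds than fed ones (adjusted p = 0.0293) and 2.64-fold lower in insulin-neutralized birds than fasted ones (adjusted p = 0.0223), and fasted bird 3 (11.54) lay within the fed range. These calls were kept under 16 and 22 of 27 alternatives. CPT1A, which carries fatty acids into mitochondria, was 2.26-fold higher in fasted birds than fed ones (adjusted p = 0.0487, kept under 6 of 27 alternatives). It read near the filter value, at 2.46 to 3.20 in fed and 3.09 to 5.29 in fasted birds, so its fold is poorly resolved. The highest was fasted bird 5, which had high hepatocyte markers. ECI2, an enzyme of unsaturated fatty acid breakdown, was 1.45-fold higher in fasted birds than fed ones (adjusted p = 0.0370, kept under 11 of 27 alternatives). The third PPAR target lower in insulin-neutralized birds than fasted ones was HADHB, of mitochondrial fatty acid oxidation (1.34-fold, adjusted p = 0.0464, called under 12 of 27 alternatives), named here after its values were seen. Leaving out 1 bird moved the PPAR target counts to 1 to 4 for fasted vs. fed and 0 to 3 in insulin-neutralized vs. fasted birds. The first was 1 when either fasted bird 1 or 5, or else fed bird 1 or 5, was left out, and 2 when insulin-neutralized bird 3, fasted bird 2 or 3, or else fed bird 2 or 3 was. The second was 0 when insulin-neutralized bird 2 was left out.

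Besides NR1H3, which the list of LXR targets contains, 1 of the list's 11 kept genes was called in fasted vs. fed birds: ACACA, the rate-limiting enzyme of fatty acid synthesis, was 1.88-fold lower (adjusted p = 0.0364, called under 16 of 27 alternatives). So the direction of ACACA was opposite to that of NR1H3. Only the brightest ACACA probe set was used here, whereas the paper names ACACA among genes that fasting lowered more than 3-fold. The list's median log2 change was -0.38 in fasted vs. fed birds, against -0.05 over all named genes. Of the 3 kept FXR targets, SDC1, a heparan sulfate proteoglycan of the cell surface, was 1.52-fold higher in fasted birds than fed ones (adjusted p = 0.0386, called under 13 of 27 alternatives). It was 1.89-fold lower in insulin-neutralized birds than fasted ones (adjusted p = 0.00820, called under all 27), although NR1H4 itself gave no signal. Of 16 kept PGC-1alpha targets, 0 were higher and 3 lower in fasted birds than fed ones: the respiratory chain subunits NDUFS1 (1.44-fold, adjusted p = 0.0138) and SDHA (1.26-fold, adjusted p = 0.00776) and TFAM, which maintains mitochondrial DNA (1.34-fold, adjusted p = 0.0223). They were called under 26, 27 and 22 of 27 alternatives. None of the 16 was called in the comparisons of insulin-neutralized birds.

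The median log2 change of the member genes was 0.23 for fasted vs. fed, 0.14 for insulin-neutralized vs. fed and -0.19 in insulin-neutralized vs. fasted birds. Over all named genes it was -0.05, -0.03 and 0.03 in the same order. The medians of the 7 related lists in fasted vs. fed birds lay between -0.38 (LXR targets) and 0.61 (FXR targets, with only 3 genes).

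**Figure D4:**
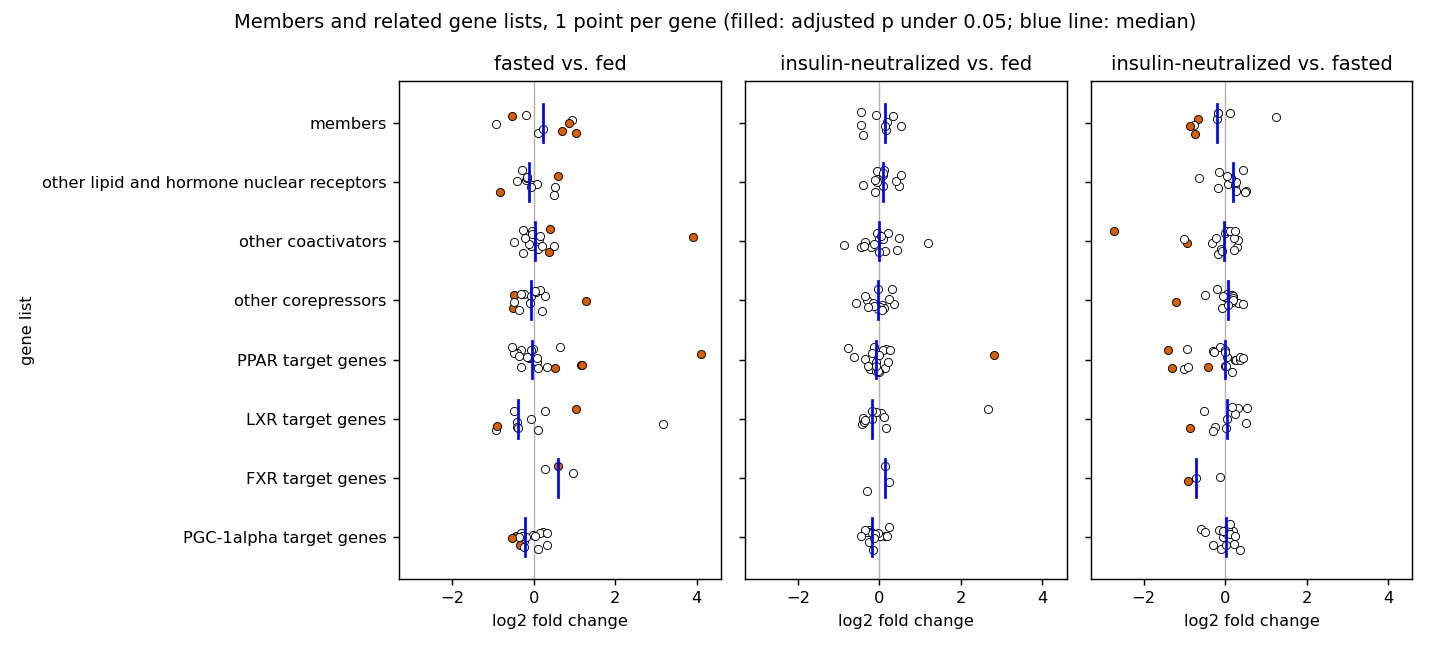
Log2 fold changes (horizontal axis) of the members and of 7 related gene lists in the 3 comparisons, 1 point per gene with its brightest probe set; filled points have an adjusted p under 0.05 and blue lines are list medians. For fasted vs. fed, LPIN1 at 3.92 and PDK4 at 4.11 are the filled points farthest right, and PDK4 at 2.82 is the filled point in insulin-neutralized vs. fed birds.

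For each member called with its brightest probe set, the 9234 other named genes were ordered by their Pearson correlation with it over the 15 birds. These values are descriptions, since birds share their group and array. PPARD was most like EGR1, an immediate early transcription factor (r = 0.88), and RHOB, a small GTPase (r = 0.88), followed by RGCCL (r = 0.87). EGR1 read 11.94, 11.91, 12.00, 11.27 and 11.50 in insulin-neutralized birds, 12.71, 13.14, 13.71, 13.64 and 13.35 in fasted birds and 12.17, 12.23, 11.81, 12.51 and 12.91 in fed birds. It was lowest in insulin-neutralized bird 4, the bird with the lowest PPARD, and among fed birds highest in bird 5, which had the highest PPARD of that group. After the group means were removed RHOB kept r = 0.91 with PPARD, EGR1 0.74 and RGCCL 0.63.

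NR1H3 was most like SGPL1, the lyase that degrades sphingosine 1-phosphate (r = 0.97, and 0.83 after the group means were removed), then KCNK4, a potassium channel (0.95 and 0.70), and LRRC32, which anchors latent TGF-beta (0.94 and 0.70). NRIP1 was most like WWC3 (0.95 and 0.83), COQ8A, which serves coenzyme Q synthesis (0.93 and 0.70), and SIK2, a salt-inducible kinase (0.91 and 0.71). NCOR1 was most like KDM6A, a histone demethylase (0.95 and 0.90), KIF3A, a kinesin motor (0.94 and 0.88), and RBPJ, the DNA-binding factor of Notch signalling (0.93 and 0.81). Fed bird 4 was lowest in NCOR1 and in all 3 of these genes, with 6.52 for KDM6A, 5.27 for KIF3A and 8.75 for RBPJ. NCOA1 was most like NFIC, a DNA-binding factor (0.91 and 0.89), DGCR6 (0.91 and 0.80) and NFYC, a subunit of a CCAAT-binding factor (0.90 and 0.85), which were highest in fed bird 5 like NCOA1. Arrays of fed birds 4 and 5 had the lowest array weights (0.219 and 0.242). The same birds had the highest and lowest mesothelial marker levels (10.24 and 6.70). The part of these arrays, or of mesothelium, in the correlations was not tested.

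**Figure D5:**
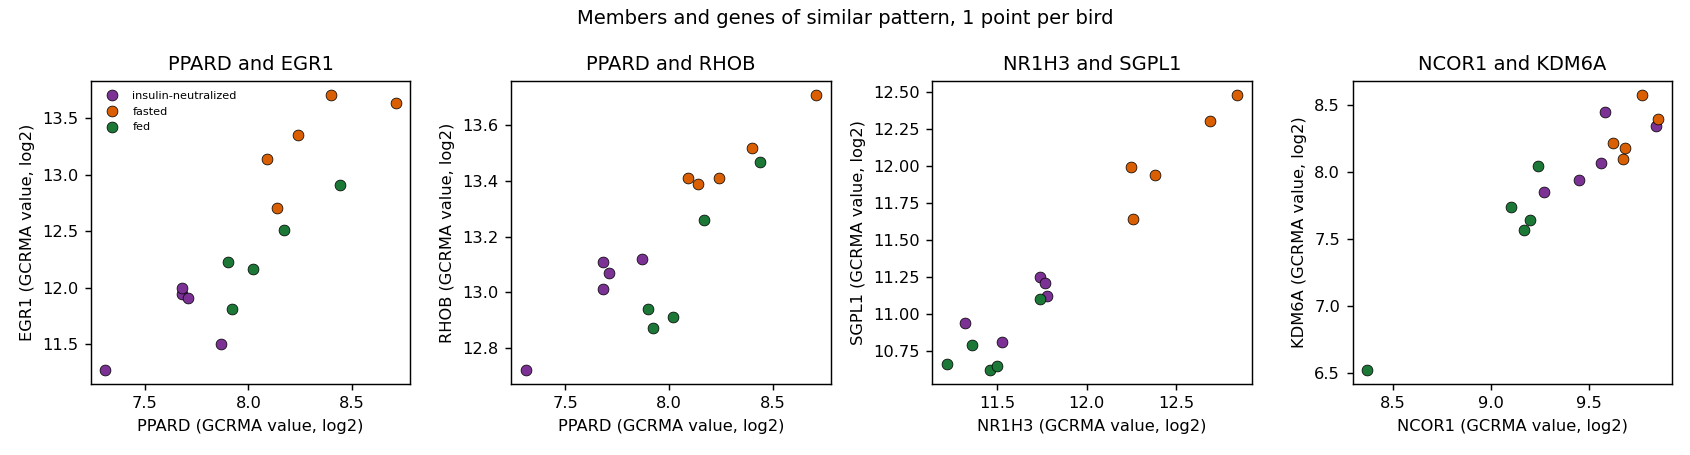
GCRMA values (log2) of a member (horizontal axis) and of a gene of similar pattern (vertical axis), 1 point per bird, for PPARD with EGR1 and RHOB, NR1H3 with SGPL1, and NCOR1 with KDM6A. In the NR1H3 panel the fasted birds stand apart at upper right, and in the NCOR1 panel fed bird 4 stands alone at lower left (8.37 and 6.52). The array of fed bird 4 had the lowest array weight (0.219).

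Between members, r over the 15 birds was 0.69 for NR1H3 with NRIP1, 0.57 for NR1H3 with NCOR1 and 0.58 for NRIP1 with NCOR1. After the group means were removed these were -0.37, -0.09 and 0.12, so within a group the 3 genes did not rise and fall together. PPARD and NR1H3 had r = 0.64, and 0.68 after the group means were removed. NR1H3 and PPARGC1A ran against each other, with r = -0.73, and -0.50 within groups, where PPARGC1A was lowest by far in fasted birds 1 and 4 (3.21 and 2.83). These pairs are examples. Within-group r of similar size was also seen for RXRA with NR1H3 (0.57) and PPARD with NCOA1 (0.56).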

How the data were processed

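Abdominal adipose tissue of 15 birds was measured on 1 array each. Values deposited by the authors are log2 expression from GCRMA, which corrects background using probe sequence, normalizes between arrays and yields 1 value a probe set; R 2.9.0, RMA and GCRMA stand in their processing notes. From these, 96 controls and 19827 probe sets below 3 on at least 5 arrays were left out. The methods' filter can also be read as keeping 18919 probe sets. Limma 3.58.1 in R 4.3.3 fitted 3 group means to all arrays (12 residual degrees of freedom, prior 2.07), and each comparison was adjusted by Benjamini-Hochberg on its own. Adjusted p-values in the text come from limma. Symbols are from the platform annotation (27178 probe sets with 1 symbol, 177 with several, 11084 unnamed here), and list genes were also matched through Entrez identifiers to RefSeq symbols. A gene with several probe sets was represented by the one with the highest mean. Named besides the members were up to 4 called genes per list with the largest change and, per called member, the 3 genes of highest correlation. Members, lists and markers were chosen with earlier results of these data known. The fit was tested on simulated data. Figures were drawn with matplotlib 3.10.9. The number of arrays limits the precision (median SE of a log2 change 0.18). No tests were adjusted over the members alone, no enrichment was tested and no sequences are shown.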

Additional observations from a re-analysis of the deposited data

Results flagged for a closer look

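In 95 groups of 5 birds, from the 14 member probe sets and 18 related genes named above, a highest or lowest bird was looked for that stood off by more than 0.71 of the group's range, which chance gives in about 1 of 20 groups. There were 8 such birds. In the brightest NCOR1 probe set fed bird 4 read 8.37, where the other fed birds read 9.10 to 9.24, and TBL1XR1 of the same complex was highest in the same bird, at 12.01 against 11.47 to 11.60. In the dimmest kept NCOR1 probe set insulin-neutralized bird 5 read 3.85 against 3.64 in the others. NAB1 read 5.14 in fed bird 2 against 5.06. In both of these cases the other birds of the group share a single value, so any different bird is picked out and the rate of 1 in 20 does not apply. CPT1A read 3.86 in insulin-neutralized bird 1, which had high hepatocyte markers, against 2.82 to 3.08. ACACA read 9.12 in insulin-neutralized bird 4 against 10.08 to 10.29. In insulin-neutralized bird 5 NDUFS1 read 12.34 against 11.89 to 12.00 and TFAM 10.95 against 10.54 to 10.65.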

How the results depend on the processing

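Of the 42 member changes, each under up to 27 alternatives, 1067 values kept direction and side of the threshold, 46 lost the call, 4 gained it and 2 changed sign. The sign changes were in changes that were not called: PPARA in insulin-neutralized vs. fed birds (0.01 without fed bird 3, range with 1 bird left out -0.12 to 0.01) and the dimmest kept NCOR1 probe set in insulin-neutralized vs. fasted birds (0.00 without insulin-neutralized bird 5, range 0.00 to 0.05). Of the calls, 8 in fasted vs. fed birds became 4 with 1 probe set per gene, where 9 are tested, and 6 to 8 with 1 bird left out. The 5 in insulin-neutralized vs. fasted birds became 3 with no filter on low values, 3 with 1 probe set per gene, 3 with the replicate number as a block, and 3 to 6 with 1 bird left out (3 without insulin-neutralized bird 3 or 5 or fasted bird 4). Without both insulin-neutralized bird 1 and fasted bird 5, a choice made after seeing the data, they became 2 (NR1H3) and the 8 became 6; causes were not tested. Without fed birds 4 and 5 the 8 also became 6. In insulin-neutralized vs. fed birds 0 members were called under any of the 27. Over all probe sets, leaving out 1 bird gave 1180 to 1832 calls in fasted vs. fed, 7 to 142 in insulin-neutralized vs. fed and 436 to 934 in insulin-neutralized vs. fasted birds. With all birds these were 1794, 92 and 756. They moved by more than 1.5 times in fasted vs. fed birds with no filter (1186), when each gene had 1 probe set (1063 of 9243 tested) and with a fit of those groups alone (960). In insulin-neutralized vs. fed birds they were 383 with the comparisons adjusted together, 187 with array weights, 55 with arrays centred on their medians, 41 with no filter, 31 without fed birds 4 and 5, 8 with the block, 6 with those groups alone and 5 without insulin-neutralized bird 1 and fasted bird 5. In insulin-neutralized vs. fasted birds they were 1789 with array weights, 1512 without fed birds 4 and 5, 466 with no filter, 455 when each gene had 1 probe set and 331 without insulin-neutralized bird 1 and fasted bird 5. Birds of the same number share only the number: deviations from group means correlated by -0.392 to 0.382, and 5 of 15 birds correlated best with their own number. With the block, fasted vs. fed birds had 7 member calls. Probe sets near the filter value, such as PPARA, resolve small changes least.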
